A study of Drosophila melanogaster with 18 samples.

Results

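The genes described here are the cuticle protein genes of *Drosophila melanogaster*, chosen by symbol alone: every gene whose symbol begins with *Cpr*, *Lcp* or *Ccp* and a number, with *Twdl*, or with *Acp65A*. This rule took 121 of the 15682 gene symbols in the count files. They fall into 70 *Cpr* genes, 26 *Twdl* genes, 17 *Lcp* genes, 7 *Ccp84A* genes and 1 adult cuticle protein gene of the 65A cluster, *Acp65Aa*.

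The insect cuticle is an extracellular matrix of chitin fibres and proteins that epidermal cells secrete from their apical side, and it also lines the tracheae, the foregut and the hindgut and forms the corneal lens of the eye. Most *Cpr*, *Lcp* and *Ccp84A* genes and *Acp65Aa* encode secreted proteins with the Rebers-Riddiford chitin-binding domain, while *Twdl* (Tweedle) genes encode a separate family of secreted cuticle proteins, of which *TwdlD* is known for mutations that make the body short and stout. Cuticle protein genes are best known for sharp waves of expression while a cuticle is being made in the embryo, larva and pupa, and the adult keeps a smaller set of them active.

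Messenger RNA was sequenced from the thoraces of *Act88F-GS-Gal4* flies, the thoraces of *w1118* flies and the heads of *elav-GS-Gal4* flies, with 3 samples fed RU486 and 3 fed the ethanol vehicle in each case. RU486 is the steroid that switches on GeneSwitch (GS), a Gal4 protein that is active only when it binds the drug, and the study asked what RU486 does by itself, without a target transgene. *Act88F-GS-Gal4* places GeneSwitch under a fragment of the *Act88F* gene, an actin of the indirect flight muscle, in a line chosen for little leaky expression. *elav-GS-Gal4* places it under *elav*, a neuronal gene, and *w1118* carries no GeneSwitch. Male flies had been kept on normal food for 4 days and then on food with 100 µM RU486 or ethanol for 10 days, and were given as 10 to 14 days old. The 6 groups are therefore a control and an RU486 group of each stock, with 3 samples each. The study describes its experiments in general as biological triplicates, and the labels do not say whether the 3 samples of a group came from separate cultures, so p-values measure the spread between these samples. In such bulk RNA, fewer cells of a type and less RNA per cell cannot be told apart.

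The libraries held 34020840 to 96176923 reads on genes, and levels are given as CPM, the counts of a gene relative to the TMM-scaled total on genes of its library. Where genes are compared with each other, FPKM is used, which also divides by gene length. The tissue labels were borne out by marker genes: 10 photoreceptor genes summed to 54276 to 88721 CPM in heads and to at most 2272 CPM in a thorax library, and 6 flight muscle genes summed to 6187 to 23348 CPM in thoraces and to 2086 to 3889 CPM in heads. Some libraries stood apart. The *elav-GS-Gal4* head controls 1 and 2 held testis RNA (16 genes summing to 829.5 and 227.5 CPM, against 0.788 in control 3 and 0.486 to 1.17 in the RU486 heads) and accessory gland RNA (9 genes summing to 377 and 80.5 CPM, against at most 0.319 in the other 4 head libraries). *w1118* thoraces also held testis RNA, from 24.6 to 907 CPM, with the lowest value in RU486 replicate 1, whereas *Act88F-GS-Gal4* thoraces held at most 1.43 CPM. *Act88F-GS-Gal4* control 1 had 2272 CPM of photoreceptor genes, against 157 to 288 CPM in the other 5 libraries of that stock.

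Most cuticle protein genes were barely expressed in these adults. A gene was taken as detected in a group when all 3 libraries reached 1 CPM, and by that measure 16 of the 121 genes were detected in *Act88F-GS-Gal4* control thoraces, 17 with RU486, 19 in each *w1118* thorax group, 20 in *elav-GS-Gal4* control heads and 24 with RU486. Across all genes of the files, 58.4% to 71.9% were detected in a group, against 13.2% to 19.8% of the cuticle protein genes. In all, 15 were detected in all 6 groups, 27 in at least 1 group and 94 in none. Counts were lower still for many: 44 genes stayed under 10 counts in every library, and *Cpr57A*, *TwdlR* and the pseudogene *Lcp65APsi* had 0 counts in all 18, where a count of 0 allows up to 3 counts per library.

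The families differed in how much of this they contributed. *Cpr* genes made up 94.9% to 96.1% of the summed cuticle protein CPM of each group, and 20 of the 70 were detected in a group. *Twdl* genes made up 3.5% to 4.55%, with 5 of 26 detected (*TwdlT*, *TwdlG*, *TwdlE*, *TwdlP* and *Twdlalpha*), each at a separate place in the genome. The *Lcp* genes, whose products were first known from larval cuticle, summed to only 1.06 to 4.22 CPM in any library, with 1 of 17 detected. *Lcp65Ac* reached 1 CPM in all 3 RU486 heads, at 1.17, 1.24 and 1.79 CPM, and had 0.473, 0.929 and 0.960 CPM in the control heads. The *Ccp84A* genes, which lie within the Antennapedia complex of homeotic genes, summed to 0.127 to 1.70 CPM, and of the 7 only *Ccp84Ag* was detected. *Acp65Aa*, named as an adult cuticle protein gene, ran from 0 to 0.545 CPM over the 18 libraries and was not detected in any group.

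**Figure D1:**
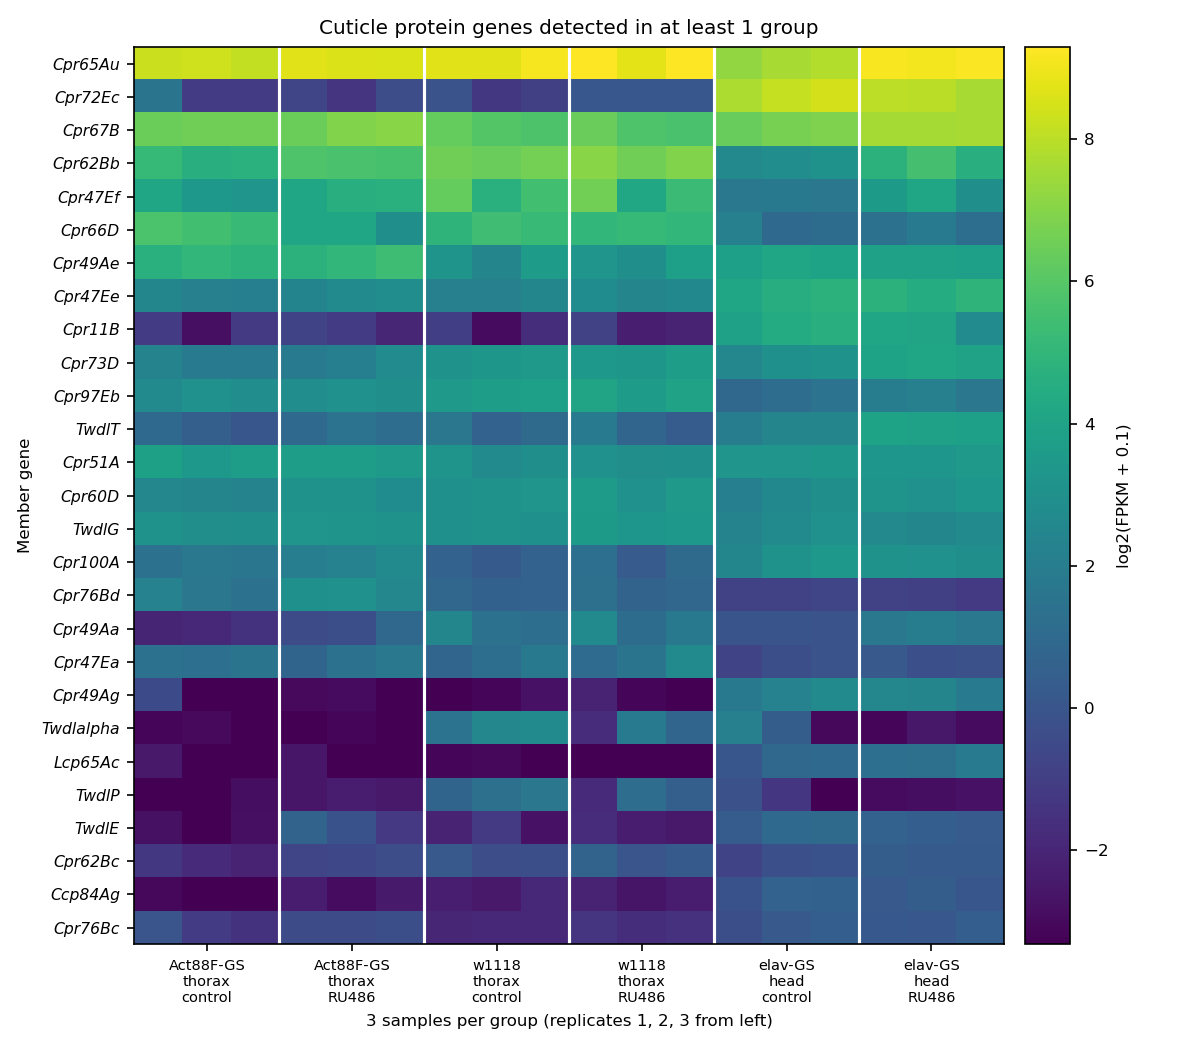
Level of the 27 cuticle protein genes detected in at least 1 group (rows) in each of the 18 libraries (columns, 3 per group, replicates 1 to 3 from the left), as log2(FPKM + 0.1) on the colour scale. *Cpr65Au* and *Cpr67B* are high in every library, *Cpr72Ec* is high in the 6 head libraries, and *Twdlalpha* and *TwdlP* follow the libraries with testis RNA.

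A few genes carried nearly all of the signal. Summed over the 121 genes, the group means were 483 and 609 CPM (control and RU486) in *Act88F-GS-Gal4* thoraces, 687 and 774 CPM in *w1118* thoraces, and 806 and 1107 CPM in *elav-GS-Gal4* heads, and the 5 highest genes of each group held 76.1% to 83.8% of that sum. *Cpr65Au*, a gene of the 65A cluster, had the highest mean FPKM in 5 of the 6 groups, from 309.6 ± 28.2 (SD, n = 3) in *Act88F-GS-Gal4* controls to 575 ± 28.8 in RU486 heads. In control heads *Cpr72Ec*, which encodes a protein of the corneal lens, was higher at 284 ± 70.6 FPKM than *Cpr65Au* at 194 ± 38.2. *Cpr72Ec* was the higher of the pair in each of the 3 control heads, although the ranges of both genes across libraries overlapped. *Cpr67B* followed in heads (99.7 ± 17.0 FPKM in controls) and in *Act88F-GS-Gal4* controls (91.7 ± 3.5), whereas in *w1118* controls *Cpr62Bb* was at 93.0 ± 7.93 and *Cpr67B* at 64.7 ± 12.1 FPKM. *Cpr66D*, *Cpr49Ae*, *Cpr97Eb*, *Cpr73D*, *Cpr51A* and *TwdlG* were among the 8 highest genes of a control thorax group. Their group means ran from 2.21 FPKM (*Cpr97Eb* in control heads) to 44.8 FPKM (*Cpr66D* in *Act88F-GS-Gal4* controls), and their order changed from group to group. In control heads, *Cpr47Ee* and *Cpr11B* came after *Cpr67B*. *Cpr49Ae* followed, and then *Cpr67Fb* and *Cpr49Ab*, which were highest in the head controls with testis RNA. *Cpr47Ef* was at 12.4 ± 4.21 FPKM in *Act88F-GS-Gal4* control thoraces and 3.23 ± 0.138 FPKM in control heads.

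By position, the genes lie on chromosome arms 3L (47), 3R (32), 2R (28), X (8) and 2L (6), and many stand in runs of neighbours. A run of 19 in the 65A region holds *Acp65Aa*, 11 *Lcp65A* genes and 7 *Cpr65A* genes, but only *Cpr65Au* and *Lcp65Ac* of these were detected. The run of 7 in the 49A region had 3 detected genes, the 7 of the 47E region 3, the 7 *Ccp84A* genes 1, and the largest *Twdl* run, 13 genes on 3R, 1. In every run of more than 4 genes, the genes not detected outnumbered those detected.

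Control heads were compared with the control thoraces of both stocks, and a gene was called only where it passed an adjusted p of 0.05 against each (edgeR quasi-likelihood test over 18 samples, Benjamini-Hochberg adjustment over 13235 genes). Tissue, stock and experiment cannot be told apart in this comparison. Of 64 cuticle protein genes tested, 25 were called, or 39.1%, against 39.8% of all genes: 13 were higher in heads (20.3%) and 12 were lower (18.8%), where 23.4% of all genes were higher and 16.4% were lower, so the share called was close to the background. The values below are log2 differences of heads from the mean of both thoraces, with the larger of both adjusted p-values.

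*Cpr72Ec* separated the tissues most. It had 305, 419 and 509 CPM in the control heads, 4.06, 0.515 and 0.549 CPM in *Act88F-GS-Gal4* control thoraces and 1.19, 0.454 and 0.626 CPM in *w1118* control thoraces. Every head library was far above every thorax library, with a log2 difference of 8.56 (adjusted p = 4.05e-07), and the highest thorax value was in the library that also held the most photoreceptor RNA. *Cpr11B* had 12.02, 17.5 and 20.6 CPM in control heads and at most 0.336 CPM in a control thorax (log2 difference 6.53, adjusted p = 5.55e-05). *Cpr49Ag*, from the 49A run, had 2.16, 3.06 and 4.14 CPM in heads and at most 0.404 CPM in control thoraces (6.10, adjusted p = 0.00693).

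Members of the smaller families were also higher in heads. *Lcp65Ac* was at most 0.0425 CPM in control thoraces (log2 difference from the head values given above 6.02, adjusted p = 4.88e-04). *Ccp84Ag* had 0.881, 1.63 and 1.53 CPM in heads and at most 0.185 CPM in control thoraces (5.27, adjusted p = 7.66e-05). *TwdlE* had 1.60, 2.54 and 2.66 CPM in heads and at most 0.454 CPM in control thoraces (4.56, adjusted p = 0.00197). Control heads did not overlap control thoraces for any of these. *Cpr47Ee* (2.38), *Cpr100A* (2.15), *Cpr76Bc* (1.90), *TwdlW* (1.61) and *TwdlT* (1.57) were higher in heads by smaller log2 differences, with adjusted p-values from 5.01e-08 to 0.0140.

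Without both head controls that held testis RNA, 8 of the 25 calls were lost: *Cpr67Fb*, *Cpr62Ba* and *TwdlT* among the higher, and *Cpr47Ea*, *Cpr47Ef*, *Cpr65Au*, *Lcp65Ag2* and *Cpr64Aa* among the lower. Apart from *Cpr67Fb*, these kept their direction, and for *TwdlT* the log2 difference was 1.57 (adjusted p = 0.0522). *Cpr67Fb* had 14.8 and 4.46 CPM in head controls 1 and 2 but 0.215 CPM in control 3, below every *w1118* control thorax. Its log2 difference was 4.30 (adjusted p = 0.0185) with all libraries and -0.79 without head controls 1 and 2. *Cpr62Ba* had 1.82, 0.634 and 0.287 CPM in the head controls (2.54, adjusted p = 0.0481) and lost the call in 19 of 24 alternatives, among them each that left out control 1, control 2 or both. Without both libraries the counts were 11 higher, of which 10 were among the 13, and 7 lower, all among the 12.

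Lower in heads were *Cpr66D*, *Cpr62Bb*, *Cpr47Ef*, *Cpr76Bd*, *Cpr97Eb*, *Cpr47Ea*, *Cpr65Au*, *Cpr64Aa* and 4 *Lcp* genes. *Cpr66D*, named like *Cpr72Ec* as a component of the corneal lens, went the opposite way from it: it had 4.84, 2.06 and 2.32 CPM in control heads against 32.8 to 58.2 CPM in the 6 control thoraces (log2 difference -3.71, adjusted p = 1.66e-06). *Cpr62Bb* had 5.93, 7.09 and 8.37 CPM in control heads against 24.2 to 99.7 CPM in control thoraces (-2.73, adjusted p = 4.67e-06). *Cpr47Ef* had 6.80 to 7.41 CPM in heads against 20.7 to 176 CPM (-2.83, adjusted p = 0.00983). Control heads lay below all control thoraces for the 3 genes. *Cpr76Bd*, *Cpr97Eb* and *Cpr47Ea* were lower by 2.15, 1.99 and 1.72 on the log2 scale as well, and *Cpr65Au* by 0.86.

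The *Lcp* genes lower in heads were *Lcp1* (log2 difference -1.93) and the tandem copies *Lcp65Ag1*, *Lcp65Ag2* and *Lcp65Ag3*. *Lcp65Ag1* had 0 counts in all 6 head libraries and 0.122 to 0.232 CPM in the control thoraces. Against a floor of 3 counts over the 3 control heads, it was at least 9.76-fold lower than in *Act88F-GS-Gal4* and at least 11.2-fold lower than in *w1118* control thoraces. The 3 copies are nearly identical, so reads that fit more than 1 of them may have been split or dropped when the authors counted, and values of a single copy are uncertain. The call for *Cpr64Aa* (-2.70, adjusted p = 0.04999) was at the threshold and was lost in 16 of 23 alternatives.

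RU486 in *elav-GS-Gal4* heads raised 9 of the 39 cuticle protein genes tested, and none was called lower. Over all 10653 genes tested, 5.78% were called, 5% higher and 0.779% lower (edgeR quasi-likelihood test, 6 head samples, Benjamini-Hochberg adjustment), against 23.1% and 0% of the cuticle protein genes. At an unadjusted p under 0.05, 13 were higher and 1 was lower, and DESeq2 called 11 higher and 2 lower. With no filter on low counts edgeR called 5 higher, all among the 9. The median log2 fold change of the 39 genes was 0.05, against 0.00 over all genes, and the calls were 6 *Cpr*, 2 *Twdl* and 1 *Lcp*.

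The gene with the highest mean FPKM in 5 of the 6 groups was among them. *Cpr65Au* had 80.3, 106 and 119.9 CPM in control heads and 305, 286 and 316 CPM with RU486, a log2 fold change of 1.49 ± 0.07 (SE, n = 3 per group, edgeR adjusted p = 0.00387). Every RU486 head was above every control head, and the RU486 heads reached the range of the *w1118* thoraces. *Cpr67B* had 81.8, 105 and 115 CPM in controls and 193, 194 and 203 CPM with RU486 (0.89 ± 0.05, adjusted p = 0.00468), which placed the RU486 heads above all other libraries. *Cpr73D* had 16.9, 24.3 and 26.6 CPM in controls and 48.2, 52.1 and 46.5 CPM with RU486 (1.05 ± 0.10, adjusted p = 0.00656). *Cpr73D* overlaps *Nc73EF* on the opposite strand, which had a log2 fold change of 0.40 (adjusted p = 0.106) in the same heads.

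*TwdlT* and *TwdlU* rose as well. For *TwdlT*, the control heads had 6.07, 8.43 and 8.32 CPM and the RU486 heads 25.2, 24.0 and 22.6 CPM (log2 fold change 1.58 ± 0.08, edgeR adjusted p = 0.00390). *TwdlU*, which lies in a run with *TwdlF*, *TwdlG* and *TwdlV*, had 0.187, 0.227 and 0.287 CPM in controls and 0.902, 0.820 and 0.768 CPM with RU486 (1.75 ± 0.23, adjusted p = 0.0145). Neither gene's groups overlapped. *TwdlG* had 10.7, 14.2 and 17.8 CPM in controls and 12.98, 11.9 and 13.6 CPM with RU486, which overlapped (-0.22, adjusted p = 0.274).

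*Cpr62Bb* and *Cpr47Ef* rose from low head levels towards those of thoraces. *Cpr62Bb* went from the control values given above to 27.3, 46.7 and 24.1 CPM (log2 fold change 2.12 ± 0.28, edgeR adjusted p = 0.0183). *Cpr47Ef* had 7.06, 7.41 and 6.80 CPM in controls and 25.4, 38.2 and 16.9 CPM with RU486 (1.82 ± 0.33, adjusted p = 0.0415), with replicate 2 the highest and replicate 3 the lowest. *Cpr49Aa* had 0.506, 0.498 and 0.487 CPM in controls and 1.87, 2.35 and 1.88 CPM with RU486 (1.93 ± 0.22, adjusted p = 0.00994). The groups did not overlap for any of the 3. *Lcp65Ag2* had 0.209, 0.159 and 0.258 CPM in controls and 1.01, 0.957 and 0.902 CPM with RU486 (2.08 ± 0.26, adjusted p = 0.0132), again apart, while *Lcp65Ag3* stayed at 0 to 0.154 CPM and *Lcp65Ag1* at 0. Of the 12 genes lower in heads than in both thoraces, 4 were called higher with RU486 in heads (*Cpr47Ef*, *Cpr62Bb*, *Cpr65Au* and *Lcp65Ag2*), and of the 13 higher in heads, 1 was (*TwdlT*). Both comparisons use the same control heads, so low values in those controls favour both calls. The matching shares over all genes were not counted, so these counts are not a result about cuticle protein genes.

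**Figure D2:**
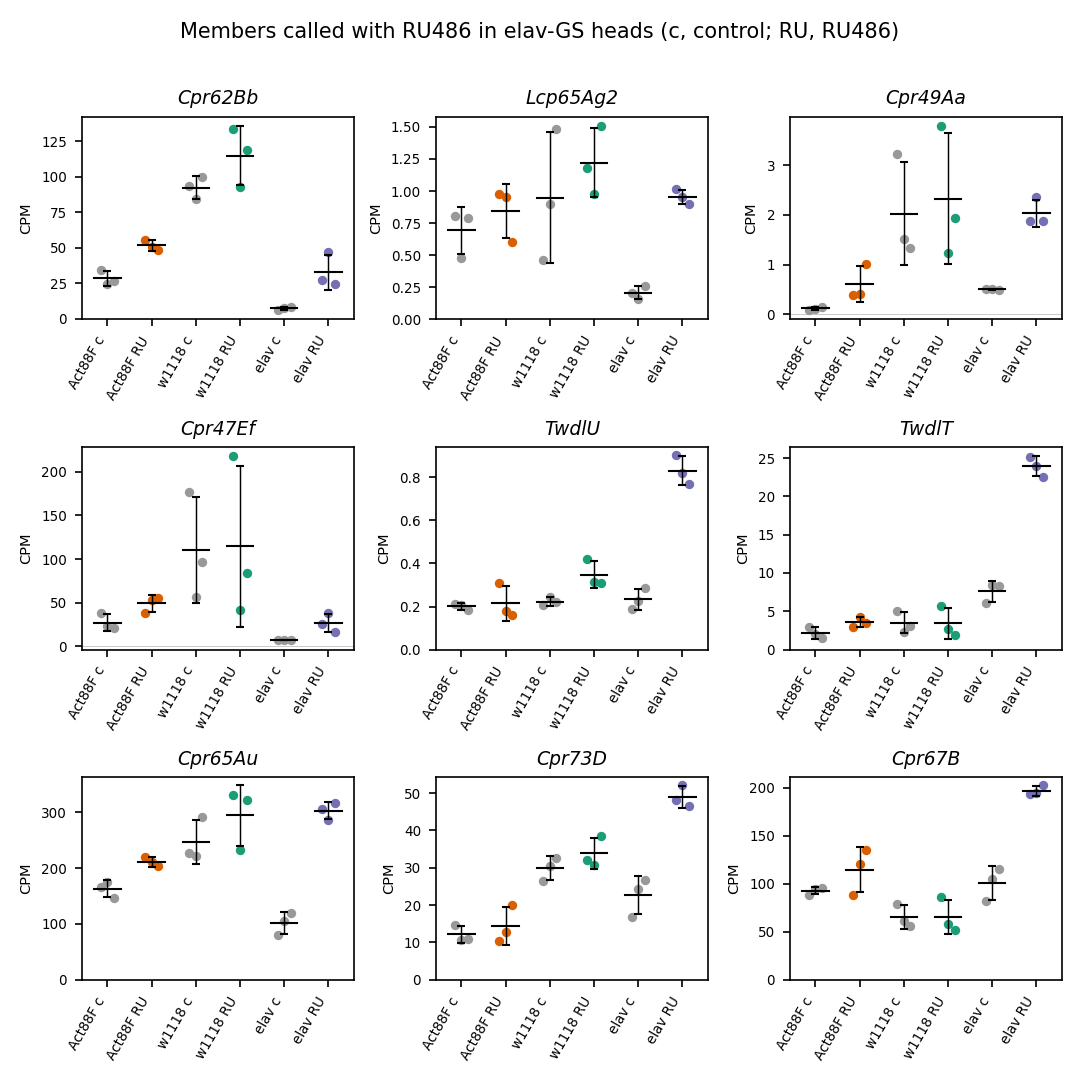
CPM of the 9 genes called higher with RU486 in *elav-GS-Gal4* heads, in all 18 libraries. Points are libraries, wide bars are group means and error bars are 1 SD (n = 3). In each panel the 3 RU486 heads lie above the 3 control heads, and for *Cpr65Au* they rise from 80.3 to 119.9 CPM to 286 to 316 CPM. The genes were chosen by a test on these head libraries, so the separation is not further support.

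The head calls depended on which libraries were used. Leaving out head control 2 or RU486 replicate 2 left 4 and 5 genes called higher, all among the 9, and *Cpr65Au*, *Cpr67B*, *Cpr73D* and *TwdlT* were called in both cases. Over all genes, 91 and 149 were called higher in these fits, against 533 with all libraries. Without RU486 replicate 1 or replicate 3 none was called, and over all genes 1 and 0 were called higher, although the log2 fold changes of the 9 genes lay between 0.87 and 2.30 in these fits (0.94 and 0.87 for *Cpr67B*, the lowest, and 2.27 and 2.30 for *Cpr62Bb*, the highest). Without both head controls that held testis RNA 5 were called (*Cpr49Aa*, *Cpr65Au*, *Cpr67B*, *Cpr73D* and *TwdlT*). Without control 3, the head control with the least testis RNA, 10 were higher and 7 were lower. Midgut RNA was higher in the controls too (9 genes summing to 1535, 821 and 238 CPM in controls 1 to 3, against 64.9 to 100.3 CPM with RU486), and 6 epithelial and tracheal genes summed to 179 to 219.8 CPM in controls and 255 to 281 CPM with RU486, 2 of them called higher. Their part in the results was not tested.

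Head controls 1 and 2 were also compared with the other head libraries. Of 60 cuticle protein genes with at least 10 counts in a head library, 14 (23.3%) were higher in both of these controls than in each of the other 4 head libraries, as were 25.4% of all genes, so the share was close to the background. The examples below were chosen after their values were seen. *Cpr49Ab* had 19.2 and 4.76 CPM there, 0.902 CPM in control 3 and 0.987 to 1.36 CPM with RU486. *Twdlalpha* had 6.02 and 1.68 CPM, against 0.0287 CPM in control 3 and 0.0220 to 0.106 CPM with RU486. *Cpr56F* had 1.99 and 0.657 CPM, against at most 0.0660 CPM in the other head libraries. *Twdlalpha* and *Cpr56F* were also low in the *w1118* thorax with the least testis RNA (0.281 and 0.155 CPM in RU486 replicate 1, against 2.22 to 8.54 and 0.539 to 2.70 CPM in the other 5), whereas *Cpr49Ab* was highest there at 7.42 CPM. *Twdlalpha* overlaps *CG32568* on the same strand and *Cpr56F* overlaps *CkIIbeta2* on the opposite strand. In the edgeR test of the 6 head libraries *Cpr49Ab* was not called with RU486 (adjusted p = 0.202), and *Twdlalpha* and *Cpr56F* did not pass its filter on low counts. DESeq2 called *Cpr49Ab* lower (log2 fold change -3.08, adjusted p = 0.00912), and an edgeR fit of all 18 samples called *Cpr56F* (-4.67, adjusted p = 0.0175) and *Twdlalpha* (-5.63, adjusted p = 0.0179) lower. Without control 3, *Cpr49Ab* (log2 fold change -3.59), *Cpr56F* (-5.28) and *Twdlalpha* (-6.22) were called lower, as were *Cpr67Fb*, *TwdlP*, *Cpr66Cb* and *Cpr49Ae*.

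**Figure D3:**
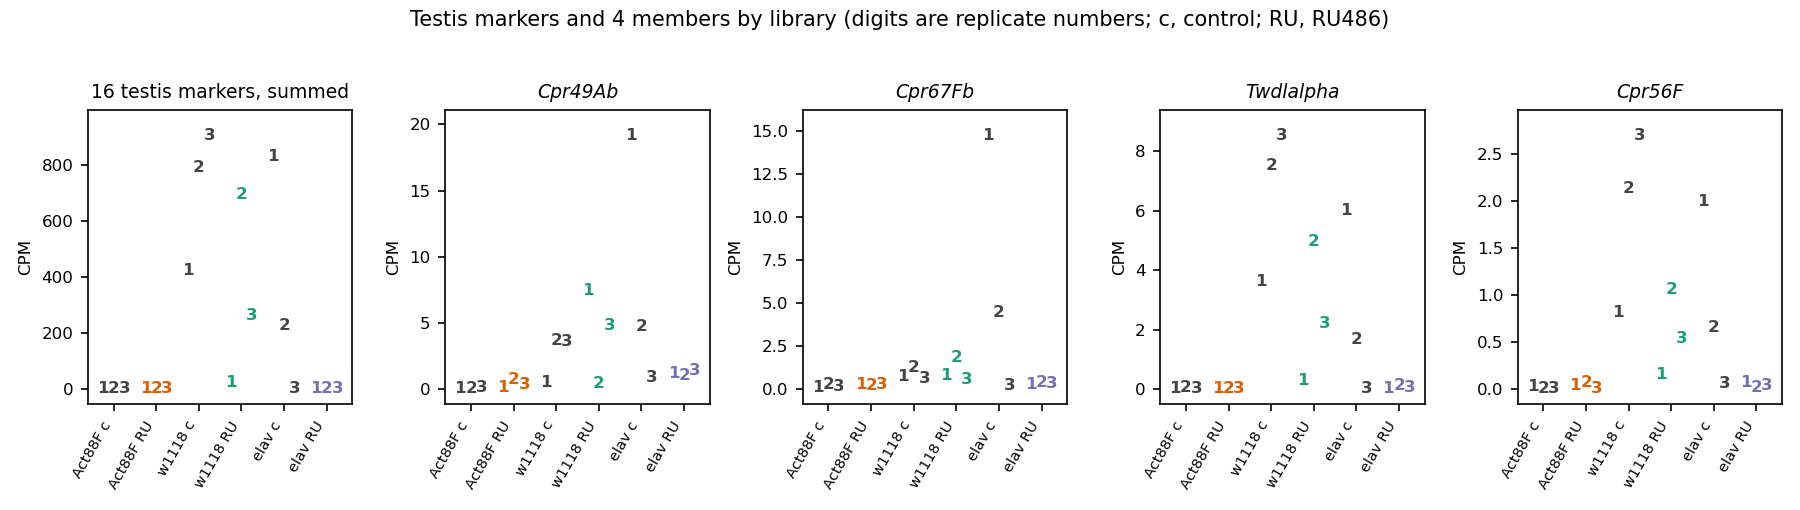
Summed CPM of 16 testis marker genes (left) and CPM of *Cpr49Ab*, *Cpr67Fb*, *Twdlalpha* and *Cpr56F* in all 18 libraries, each drawn as its replicate number. Head controls 1 and 2 stand above head control 3 and the RU486 heads in every panel, with 19.2 and 4.76 CPM of *Cpr49Ab* against 0.902 CPM.

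In *Act88F-GS-Gal4* thoraces RU486 raised 11 of 31 cuticle protein genes tested and lowered 1. Over all 10600 genes tested, 32.5% were called, 12.6% higher and 19.9% lower (edgeR quasi-likelihood test, 6 samples, Benjamini-Hochberg adjustment), against 35.5% and 3.23% of the cuticle protein genes, and their median log2 fold change was 0.35 against 0.01 over all genes. At an unadjusted p under 0.05 the counts were 12 and 1, and DESeq2 gave the same 12 calls and *Cpr47Ef*. Genes with almost no reads in the controls passed the filter on low counts through the RU486 group alone. The shares and the median of the genes tested therefore depend partly on the rise itself. With no filter, 10 of 104 cuticle protein genes were called higher. The genes raised were 10 *Cpr* genes and *TwdlE*, and the gene lowered was *Cpr66D*.

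The largest fold changes were in genes with almost no reads in the controls. *TwdlE* had 3, 0 and 2 counts in the control thoraces and 120, 60 and 14 counts with RU486, or 2.06, 1.08 and 0.444 CPM, which did not overlap. Its log2 fold change was 4.60 ± 0.84 (edgeR adjusted p = 0.00804), and the ratio of pooled counts was 29.1 (95% exact interval 12.2 to 90.5, counting error only). *Cpr64Ac* had 3, 0 and 1 counts in controls and 53, 31 and 13 with RU486 (log2 fold change 3.98 ± 0.67, adjusted p = 0.00593), a pooled ratio of 18.2 (6.87 to 68.0). Both overlap another gene on the opposite strand, *lectin-28C* and *CG43367*, with log2 fold changes of 0.60 (adjusted p = 0.122) and 0.09 (adjusted p = 0.386).

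*Cpr49Ac* had 4, 1 and 5 counts in controls and 59, 64 and 12 with RU486 (log2 fold change 3.13 ± 0.61, edgeR adjusted p = 0.00998), a pooled ratio of 10.1 (5.33 to 21.6). *Cpr11A* had 7, 2 and 5 counts in controls and 20, 54 and 56 with RU486 (2.91 ± 0.72, adjusted p = 0.0233), a ratio of 6.96 (3.9996 to 13.1). *Cpr49Aa*, the neighbour of *Cpr49Ac* in the 49A run, had 4, 3 and 5 counts in controls and 22, 23 and 32 with RU486 (2.30 ± 0.57, adjusted p = 0.0246), a ratio of 4.81 (2.60 to 9.70). The groups of all 3 genes were apart, and the replicates did not share an order: RU486 replicate 3 was the lowest for *TwdlE*, *Cpr64Ac* and *Cpr49Ac* in CPM but the highest for *Cpr11A* and *Cpr49Aa*. *TwdlBeta*, which did not pass the filter on low counts, had 0.213 to 0.240 CPM in controls and 0.120, 1.18 and 4.22 CPM with RU486, so that the groups overlapped.

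The other genes called higher had smaller fold changes. *Cpr62Bb* had 34.1, 24.2 and 26.5 CPM in controls and 55.5, 50.6 and 48.4 CPM with RU486 (log2 fold change 0.80 ± 0.13, edgeR adjusted p = 0.00506). *Cpr62Bc*, its neighbour, had 17, 6 and 5 counts in controls and 35, 36 and 25 with RU486, or 0.152 to 0.361 and 0.600 to 0.793 CPM (1.38 ± 0.38, adjusted p = 0.0332), a pooled ratio of 2.57 (1.67 to 4.07). *Cpr76Bd* had 21.1, 13.9 and 11.8 CPM in controls and 36.5, 37.0 and 25.4 CPM with RU486 (1.01 ± 0.24, adjusted p = 0.0222). In these 3 genes every RU486 thorax was above every control. *Cpr100A* (0.74), *Cpr60D* (0.56) and *Cpr65Au* (0.31), with adjusted p-values from 0.0168 to 0.0346, rose by under 1 log2 unit, *Cpr65Au* from 167, 175 and 146 CPM to 221, 210.2 and 203 CPM.

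*Cpr66D* fell. It had 58.2, 48.8 and 41.2 CPM in the control thoraces and 19.6, 18.8 and 8.37 CPM with RU486, a 3.30-fold drop (log2 fold change -1.72 ± 0.32, edgeR adjusted p = 0.00868) with no overlap. It kept the call in 12 of 13 alternatives, the exception being the unequal-variance test, and without control 1, the library with photoreceptor RNA, its log2 fold change was -1.59.

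**Figure D4:**
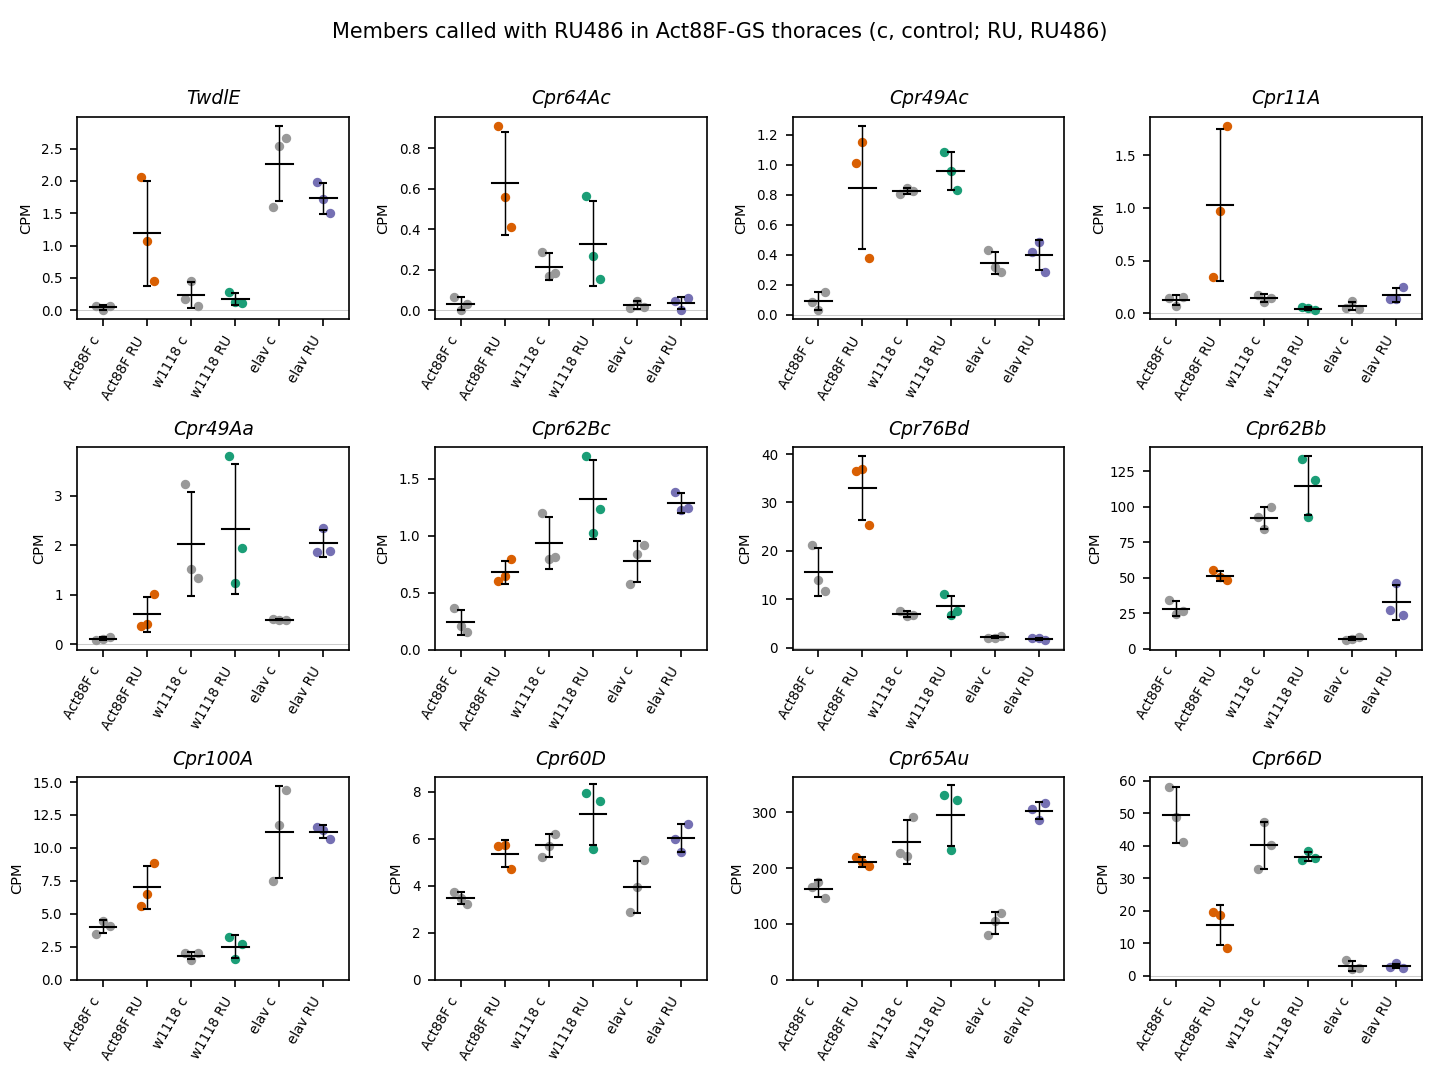
CPM of the 12 genes called with RU486 in *Act88F-GS-Gal4* thoraces, in all 18 libraries. Points are libraries, wide bars are group means and error bars are 1 SD (n = 3). In the *Act88F-GS-Gal4* groups the RU486 thoraces lie above the controls in 11 panels and below them for *Cpr66D*, at 8.37 to 19.6 CPM against 41.2 to 58.2 CPM. The genes were chosen by a test on these *Act88F-GS-Gal4* libraries, so the separation is not further support.

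The number of calls moved with single libraries here too. Without RU486 replicate 2, control 2 or control 3, 5, 5 and 4 genes were called higher, all among the 11, and *TwdlE*, *Cpr64Ac*, *Cpr49Ac* and *Cpr62Bb* were called each time. Over all genes the calls fell from 1332 to 705, 660.0 and 676 in these fits. The unequal-variance test on log2(CPM + 1), the kind of test the study used on log2(FPKM + 1), called none of the 12. Over all genes it still called 297 higher and 858 lower. Other tissue markers moved in the same libraries: 6 flight muscle genes summed to 22075 to 23348 CPM in controls and 8578, 10820.0 and 21180.5 CPM with RU486, with 3 called lower. Midgut genes, 9 in all, summed to 15264 to 17026 CPM in controls and 19347.5 to 22839 CPM with RU486, with 2 called higher. The 6 epithelial and tracheal genes (*grh*, *btl*, *trh*, *vvl*, *serp* and *verm*) summed to 209.8 to 263 CPM in controls and 328 to 343 CPM with RU486, with all but *btl* called higher, and *grh*, *vvl*, *serp* and *verm* are also in the lists of other cuticle genes given further on. No marker of these lists was at 0. Their part in the results was not tested.

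In *w1118* thoraces, which carry no GeneSwitch, none of 56 cuticle protein genes tested was called with RU486, as was the case for 0% of all 12980 genes tested by edgeR. At an unadjusted p under 0.05, *TwdlG* (log2 fold change 0.32) and *TwdlU* (0.58) were higher and *Cpr11A* (-1.70) was lower, against 665 and 529 of all genes, and DESeq2 called *TwdlG* alone. *TwdlG* had 17.0, 18.7 and 17.5 CPM in controls and 25.4, 21.4 and 22.7 CPM with RU486. These 3 genes are named for their unadjusted values. The spread between replicates was wide, with a biological coefficient of variation of 40.7%, against 18.3% in *Act88F-GS-Gal4* thoraces and 30.5% in heads, and *Cpr47Ef* ran from 41.5 to 218 CPM among the RU486 samples.

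The RU486 response of both thorax stocks was compared directly by an interaction term over the 12 thorax samples. Of 57 cuticle protein genes, 4 had a higher response in *Act88F-GS-Gal4* than in *w1118* and 1 a lower response, or 7.02% and 1.75%, where 4.29% and 11.9% of all genes did (16.2% in either direction, against 8.77%). The 5 were *TwdlE* (difference of log2 fold changes 5.13 ± 1.29, edgeR adjusted p = 0.0233), *Cpr11A* (4.63 ± 0.86, adjusted p = 0.00561), *Cpr64Ac* (3.48 ± 0.97, adjusted p = 0.0361), *Cpr49Ac* (2.96 ± 0.67, adjusted p = 0.0149) and *Cpr66D* (-1.55 ± 0.39, adjusted p = 0.0229). *Cpr66D* had 32.8, 47.2 and 40.3 CPM in *w1118* controls and 35.6, 38.3 and 36.1 CPM with RU486, which overlapped. The number of higher responses fell to 2 without *Act88F-GS-Gal4* control 2 or 3, *w1118* control 2 or *w1118* RU486 replicate 3, the lower response was not called without *Act88F-GS-Gal4* control 2 or *w1118* control 1 or 3, and *Cpr11A* was called in all 17 alternatives. Samples of both stocks were also blocked by replicate number, although the numbers were taken to pair only the *w1118* samples. A block in *w1118* alone was not tested. With the block in both stocks, *TwdlE* (adjusted p = 0.0615) and *Cpr49Ac* (adjusted p = 0.0862) lost the call. *Cpr11A*, *Cpr64Ac* and *Cpr66D* kept it in that edgeR fit, and *Cpr49Aa* (2.12, adjusted p = 0.0359), *Cpr62Bb* (0.56, adjusted p = 0.0434) and *Cpr76Bd* (0.81, adjusted p = 0.0481) gained one. For the other 7 genes called in *Act88F-GS-Gal4* the difference between the stocks did not pass the threshold.

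Between the GeneSwitch stocks, 3 genes were called higher with RU486 in both *Act88F-GS-Gal4* thoraces and *elav-GS-Gal4* heads: *Cpr49Aa*, *Cpr62Bb* and *Cpr65Au*. They are 27.3% of the members called higher in thoraces and 33.3% of those in heads, where the 144 genes shared over all genes were 10.8% of the thorax calls and 27% of the head calls. The thorax and head experiments share no samples. Of the 8 head calls tested in *Act88F-GS-Gal4* thoraces, all 8 had a log2 fold change above 0 there, as did 83.9% of all members and 51.1% of all genes tested in those thoraces. Of the 9 thorax calls tested in heads, 6 were above 0, where 53.8% of members and 50.4% of all genes were. In *w1118* thoraces, which carry no GeneSwitch, 9 of 11 thorax calls and 6 of 9 head calls were above 0, where 46.4% of members and 45.7% of all genes were. *TwdlE* had a log2 fold change of -0.45 (adjusted p = 0.226) and *Cpr66D* of -0.19 (adjusted p = 0.826) in heads. Whether the drug response differed between thoraces and heads was not tested.

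**Figure D5:**
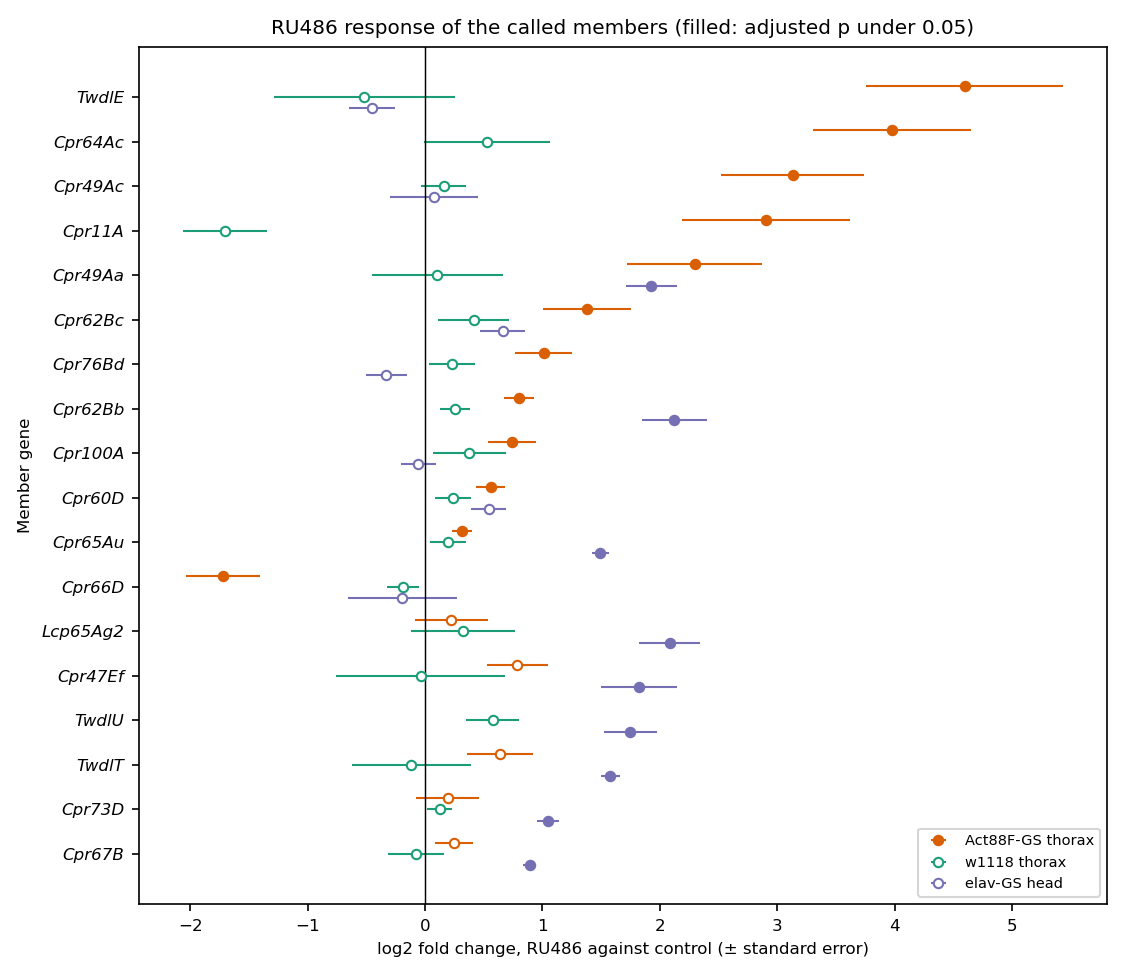
Log2 fold change with RU486 (± standard error) of the 18 cuticle protein genes called in a drug comparison, in *Act88F-GS-Gal4* thoraces, *w1118* thoraces and *elav-GS-Gal4* heads, with filled points at an adjusted p under 0.05 and no point where a gene was not tested. *Cpr49Aa*, *Cpr62Bb* and *Cpr65Au* are filled in both GeneSwitch stocks, and no *w1118* point is filled.

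The control thoraces of both stocks were compared with each other. Of 57 cuticle protein genes, 33 were called, or 57.9%, against 65.6% of all 13019 genes: 7 were higher and 26 were lower in *Act88F-GS-Gal4* than in *w1118* controls (12.3% and 45.6%), where 31% and 34.6% of all genes were (edgeR quasi-likelihood test, 12 thorax samples). Higher were *Cpr49Ae* (log2 difference 1.73), *Cpr76Bc* (1.60), *Cpr76Bd* (1.20), *Cpr100A* (1.16), *Cpr64Ad* (1.12), *Cpr51A* (0.74) and *TwdlD* (2.44, at most 0.212 CPM in a control). *Cpr76Bc* had 77, 19 and 16 counts in the *Act88F-GS-Gal4* controls, highest in control 1, the library with photoreceptor RNA. Its difference was as low as 0.90 with a library left out, and it kept the call in all 17 alternatives. Stock, genetic background and experiment cannot be told apart in this comparison.

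Several genes that RU486 raised in *Act88F-GS-Gal4* thoraces started lower there than in *w1118*. *Cpr49Aa* had 0.0849, 0.103 and 0.152 CPM in *Act88F-GS-Gal4* controls and 3.23, 1.52 and 1.33 CPM in *w1118* controls (log2 difference -4.13, edgeR adjusted p = 5.40e-04). *Cpr49Ac* had 0.0849, 0.0343 and 0.152 CPM against 0.802, 0.842 and 0.823 CPM (-3.12, adjusted p = 6.40e-04), and *Cpr62Bb* was lower by 1.68. Neither pair of groups overlapped. *Cpr64Ac*, *Cpr62Bc*, *Cpr60D* and *Cpr65Au* were lower in *Act88F-GS-Gal4* controls as well, by 2.53, 1.92, 0.69 and 0.57 on the log2 scale, while *TwdlE* (-2.33, adjusted p = 0.0633) and *Cpr11A* (-0.20) did not pass the threshold. *Cpr76Bd* and *Cpr100A*, which RU486 also raised, went the other way and were higher in *Act88F-GS-Gal4* than in *w1118* controls, by 1.20 and 1.16. These contrasts share the *Act88F-GS-Gal4* controls with the drug comparison, so low values in those controls favour both calls. The matching share over all genes raised by RU486 was not counted.

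The largest stock differences were in genes that also followed testis RNA. *Twdlalpha* had at most 0.0343 CPM in *Act88F-GS-Gal4* controls and 3.62, 7.52 and 8.54 CPM in *w1118* controls (log2 difference -8.31, edgeR adjusted p = 4.52e-04). *Cpr56F* (-7.42) and *TwdlP* (-7.30) differed nearly as much, and testis RNA was at 0.446 to 0.975 CPM in the former controls and 423 to 907 CPM in the latter. Of the 26 genes lower in *Act88F-GS-Gal4*, 9 (34.6%) were also higher in head controls 1 and 2 than in the other heads, as were 61% of all genes lower in that stock. The part of testis RNA in these differences was not tested.

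Other genes of cuticle formation were counted from lists drawn up with earlier results known, for comparison with the structural proteins. The counts below stand beside the shares over all genes tested. These were 5% higher and 0.779% lower in *elav-GS-Gal4* heads, and 12.6% higher and 19.9% lower in *Act88F-GS-Gal4* thoraces. Among 20 tanning and pigmentation genes tested in *elav-GS-Gal4* heads, 6 were called higher and none lower, *ple*, the tyrosine hydroxylase that begins dopamine and melanin synthesis, by a log2 fold change of 1.26 and *laccase2*, the oxidase that hardens cuticle, by 0.74. In *Act88F-GS-Gal4* thoraces 2 of 20 were higher (*Pu* and *yellow-b*) and 3 lower, among them *y* (-1.30) and *b* (-1.06), the latter an enzyme of beta-alanine synthesis. The median log2 fold changes of these lists were 0.06 and 0.24, against 0.00 and 0.01 over all genes. The RNA of *y* was particular to 1 stock. It had 52.4 to 57.1 CPM in *Act88F-GS-Gal4* controls and at most 29.9 CPM with RU486. In every *w1118* thorax and *elav-GS-Gal4* head library it had at most 0.182 CPM. The fall of *y* is therefore a fall of RNA nearly absent from the other stocks, and its source was not tested.

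Of the genes that modify or degrade chitin, 4 of 17 tested were higher in heads, *Cht3* (2.42), *knk* (0.76), *Cht7* (0.65) and *serp* (0.64). In *Act88F-GS-Gal4* thoraces 4 of 19 were higher (*Cht12*, *serp*, *rtv* and *verm*) and 2 lower, *Cht3* (-0.89) and *Cda4* (-0.85). *Cht12* was low in these thoraces, with 0.103 to 0.234 CPM in controls and 0.549, 1.22 and 3.46 CPM with RU486. It had 30.2 and 8.20 CPM in head controls 1 and 2, which held testis RNA, and 0 in head control 3. *serp* and *verm* encode chitin deacetylases of the tracheal cuticle, and *Cht3* encodes a chitinase that changed in opposite directions in the 2 stocks. Chitin synthesis itself moved little: 1 of 8 genes was higher in each GeneSwitch stock (*Gfat1* in heads, *Gfat2* in thoraces), and *kkv*, the chitin synthase of the epidermis, was not called in *Act88F-GS-Gal4* (0.34, adjusted p = 0.244).

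Genes of the apical matrix included the highest share of calls among these lists. Of 6 zona pellucida domain genes tested in *Act88F-GS-Gal4* thoraces, 4 were higher, *neo* (3.08), *dyl* (1.16), *dp* (0.76) and *pio* (0.39). The list median was 0.96 against 0.01 over all genes, and in heads 1 of 6 was higher, *pio* (0.49). In these thoraces *neo* had 0.240 to 0.276 CPM in controls and 0.412, 1.80 and 4.95 CPM with RU486, so its fold change rested largely on replicate 3. *dyl* was low too, with 0.172 to 0.234 CPM in controls and 0.429 to 0.539 CPM with RU486. Of the other cuticle proteins, *Edg91* was higher in *Act88F-GS-Gal4* thoraces (2.94, adjusted p = 0.00184), as 1 of 8, and *CG16884* (1.46) and *CG16885* (1.40) were in heads, as 2 of 10. Of the obstructor family of chitin-binding proteins, 2 of 6 were higher in heads (*Peritrophin-A* and *obst-E*) and 0 of 8 in *Act88F-GS-Gal4* thoraces. *grh*, a transcription factor of epidermal barrier genes, was higher in both GeneSwitch stocks (0.46 in heads, 0.39 in thoraces) among 11 regulators tested, and *vvl* in thoraces (0.38). None of these genes was called in *w1118* thoraces, where 0 of all 12980 genes tested were called.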

How the data were processed

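The members, gene lists and tests used here were chosen with earlier results of these data known. According to the methods of the study, libraries were made with a stranded mRNA kit and sequenced on an Illumina HiSeq 2000, reads were placed on the BDGP5.75 genome with StrongARM, and the authors obtained the deposited counts per gene with HTSeq. The submitters' processing notes name BWA, STAR, HTSeq and the build dm3. Since the HTSeq strand setting is not given in the sources used here, reads of overlapping genes on opposite strands may not have been told apart, and near-identical copies (*Lcp65Ag1* to *Lcp65Ag3*, *Lcp65Ab1* and *Lcp65Ab2*, *Cpr65Ax1* and *Cpr65Ax2*, *Cpr67Fa1* and *Cpr67Fa2*) are uncertain. Rows that name no gene held 14.55% to 29.89% of a library and were left out.

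Counts were tested with the quasi-likelihood test of edgeR 4.0.16 in R 4.3.3 (robust fit, filterByExpr, TMM scaling), with Benjamini-Hochberg adjustment over all genes tested and a threshold of 0.05. Each drug comparison used its own 6 samples. The interaction and the comparison of control stocks used the 12 thorax samples, and the comparison of heads with thoraces used all 18. Standard errors of the log2 fold changes were derived from the test, as the absolute log2 fold change over the square root of its F statistic. The CPM were scaled over all 18 libraries and each test over its own samples. The spread of the printed CPM therefore need not match these standard errors. Of the 121 genes, 66 passed the filter on low counts in at least 1 fit and 61 in at least 1 drug comparison. A gene can pass through the group in which it is high. Intervals of pooled ratios and floors cover counting error only. Where the groups of a called gene are said not to overlap, the same libraries gave the call, so this is not further support. The share of genes without overlap over all genes was not counted. No 2 libraries held identical counts. Gene lengths, chromosome arms and neighbours came from the Ensembl annotation of BDGP6.54, which matched all 121 symbols (1 through a synonym), and its build differs from that of the files, so no coordinates are given.

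Named genes were those called in a drug comparison or in the interaction, the 8 highest by mean FPKM in the controls of each stock, up to 10 called in each direction between heads and thoraces, and detected members of the *Lcp*, *Ccp84A* and *Acp65A* families. From each list of other cuticle genes, up to 5 called per comparison were named. *Acp65Aa*, and genes given as examples of overlap, of testis RNA or of an unadjusted p, were named after their values were seen. Alternatives were RLE scaling, no filter, a mean count of at least 10, DESeq2 1.42.0, the replicate number as a block, an unequal-variance test on log2(CPM + 1), a fit of all 18 samples and leaving out each library. Leaving out both head controls with testis RNA was added after seeing the data. Deviations of same-numbered samples correlated at 0.303 to 0.566 in *w1118*, at -0.147 to 0.0519 in *Act88F-GS-Gal4* and at -0.0646 to 0.0725 in heads. Differently numbered *w1118* samples correlated at -0.603 to 0.448, which overlaps the same-numbered values. The *w1118* numbers were taken to pair the samples, although the labels state no pairing. The main tests had no term for replicate number, and the block, where used, was set in every stock of a fit. The fits were tested on simulated data.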

Additional observations from a re-analysis of the deposited data

Results flagged for a closer look

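The response to RU486 differed between *Act88F-GS-Gal4* and *w1118* thoraces for 5 cuticle protein genes by the interaction term of the edgeR quasi-likelihood test, with Benjamini-Hochberg adjustment over 13019 genes. The differences in log2 fold change were 5.13 for *TwdlE*, 4.63 for *Cpr11A*, 3.48 for *Cpr64Ac*, 2.96 for *Cpr49Ac* and -1.55 for *Cpr66D*. For *Cpr11A* the stocks had log2 fold changes of 2.91 and -1.70, and in *w1118* that fold change had an adjusted p of 0.539. With samples of both stocks blocked by replicate number, *TwdlE* and *Cpr49Ac* lost the call (adjusted p = 0.0615 and 0.0862). Stock and experiment cannot be told apart in this contrast.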

How the results depend on the processing

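No cuticle protein gene called with RU486 kept its call under every alternative, neither any of the 12 in *Act88F-GS-Gal4* thoraces nor any of the 9 in heads, whereas 13 of 25 calls between heads and thoraces, 16 of 33 between control stocks and 1 of 5 in the interaction did. The unequal-variance test on log2(CPM + 1) called 0 higher and 0 lower in *Act88F-GS-Gal4* and 0 higher in heads. Over all genes it called 297 higher and 858 lower in *Act88F-GS-Gal4*. In heads, 5 were higher with no filter, 5 with a mean count of at least 10 and 5 without both controls that held testis RNA, and the lower count was 2 by DESeq2 and 7 in a fit of all 18 samples. DESeq2 called 1 higher in *w1118*. Without both head controls, 7 genes were lower in heads than in thoraces, and *Cpr67Fb* turned to a log2 difference of -0.79 (adjusted p = 1). The cause was not tested.

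When samples were blocked by their number, 4 genes were higher in heads and 9 in *Act88F-GS-Gal4*, none was called in *w1118*, and the counts between control stocks were 3 higher and 15 lower. In the interaction 5 were higher, of which 2 (*Cpr11A* and *Cpr64Ac*) were among the 4 reported. The block was set in every stock, although the numbers were taken to pair samples only in *w1118*, and the labels state no pairing.

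The median log2 fold change in *Act88F-GS-Gal4* (0.35) was 0.50 with no filter, 0.22 in the unequal-variance test and 0.43 in a fit of all 18 samples. In *w1118* (-0.04) it was -0.0029 with RLE scaling, -0.17 with no filter and -0.0015 by DESeq2. In heads (0.05) it was -0.17 with no filter, -0.035 with a mean count of at least 10, 0.064 with the block, 0.025 in the unequal-variance test, -0.11 in a fit of all 18 samples and 0.27 without both controls. At a minimum of 5 CPM, 12 genes were detected in each *w1118* group, 13 in control heads and 14 in RU486 heads.

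Leaving out each library in turn gave 4 to 12 higher and 1 to 1 lower calls in *Act88F-GS-Gal4* (median 0.32 to 0.63), 0 to 0 in *w1118* in both directions (median -0.043 to 0.11) and 0 to 10 higher and 0 to 7 lower in heads (median -0.084 to 0.051). It gave 2 to 6 higher and 0 to 1 lower in the interaction, 6 to 9 higher and 23 to 27 lower between control stocks, and 10 to 14 higher and 11 to 12 lower between heads and thoraces. Over 2138 recalculations of the values of single genes, 1910 kept direction and side of the threshold, 214 lost the call, 13 gained it and 1 turned. This total includes values with no call to lose, such as those of the drug comparison in *w1118*, where the main test called none. In the drug comparison in heads, leaving out a library gave 65 values that stayed, 30 that lost the call and 1 that gained it.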
